A study of Mus musculus with 4 samples.

Results

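The collagen genes encode the chains of the collagen superfamily, the extracellular proteins whose chains wind round one another in threes. They were read here in the hippocampus of wildtype and Malat1 knockout mice. A gene counted as a collagen gene where a row of the deposited array table carried a single gene symbol of the form Col, a number, the letter a and a number. This rule found 43 genes among the 20707 genes with such a row, on 73 rows, and where a gene had several rows the brightest one stood for it. The genes were grouped as 11 fibrillar, 6 basement membrane and 26 other collagens. Col19a1 shares its row with Tubb4b and was not read. All 4 mice were untreated C57BL/6 males aged 3 months, 2 of them wildtype and 2 Malat1 knockout, and the hippocampus of each was hybridised to its own Affymetrix mouse exon array. Malat1 is a long noncoding RNA of nuclear speckles, and the series asked what its loss does to gene expression. The design text describes littermate pairs of wildtype and knockout animals, while the allele, its zygosity and which arrays are littermates are not given in the labels. A sample description speaks of neurons, but the protocol is a dissection of the whole hippocampus with no sorting of cells. In such bulk tissue, fewer cells of a type and less RNA per cell cannot be told apart.

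Collagen chains carry long runs in which glycine recurs at a fixed short interval, and enzymes of the endoplasmic reticulum hydroxylate and glycosylate them before they fold. Fibrillar collagens build the banded fibres of connective tissue, type IV collagens build the sheet of the basement membrane, and the remaining types decorate fibres, form beaded filaments, anchor one matrix to another or span the cell membrane. Brain parenchyma holds little fibrillar collagen, most of which lies in meninges and around vessels, and type IV chains line every capillary. Some collagens are made by neurons themselves, Col25a1 and Col19a1 among them.

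The genotype labels and the arrays were checked first on Malat1, which stood at 11.19 and 11.25 log2 units on the wildtype arrays and at 8.53 and 8.70 on the knockout arrays (limma, adjusted p = 0.00639). It was the 1 gene of 15995 tested that passed the adjusted threshold of 0.05. Of 14 markers of hippocampal neurons 13 were above the filter described below, but so were 15995 of 20707 genes, and that count does not test the tissue label. The granule neuron factor Prox1 stood at 9.86 and 9.82 in wildtype and at 9.75 and 9.66 in knockout arrays. Knockout replicate 2 stood apart from the other arrays. In its 3 pairs with other arrays a gene differed by a median of 0.0762 to 0.0833 log2 units, against 0.0468 to 0.0572 in pairs without it. Collagen values are therefore also given without it.

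Of the 43 collagen genes, 39 had a mean signal above the filter level of 5.70 log2 units, the 25th percentile of singly named rows, and were tested. The others were Col4a5 and Col4a6, chains of type IV collagen encoded on the X chromosome, the network-forming Col8a1, and Col14a1, which associates with type I fibrils. Their values lay between 5.20 and 5.70 log2 units on every array. Col24a1 lay just inside the filter, at 5.62 and 5.68 in wildtype and 5.69 and 5.80 in knockout arrays.

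No collagen gene differed between the genotypes past the adjusted threshold. The count was 0 of 39 by limma, beside a background of 0.00625% of all genes. An unadjusted limma p under 0.05 was found for 2 of 39, Col6a5 and Col9a2, where 3.86% of all genes had one. Both were higher in the knockout, as were 1.88% of all genes at that p, and 0 were lower, beside 1.98% of all genes. Small differences nevertheless ran one way: 37 of the 39 genes had a log2 fold change above 0, whereas 49.2% of all genes did. The median log2 fold change was 0.093 over the collagen genes, a 1.07-fold difference in signal, and -0.0011 over all genes. Both knockout arrays lay above both wildtype arrays for 22 of the 39, where 14.7% of all genes showed this, and below them for 1, where 14.3% did. For 38 of the 39 the 95% interval of the difference lay within 1.5-fold in both directions, as it did for 95.9% of all genes, and Col6a5 was the exception. The plot of log2 fold changes by class shows these values gene by gene.

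**Figure D1:**
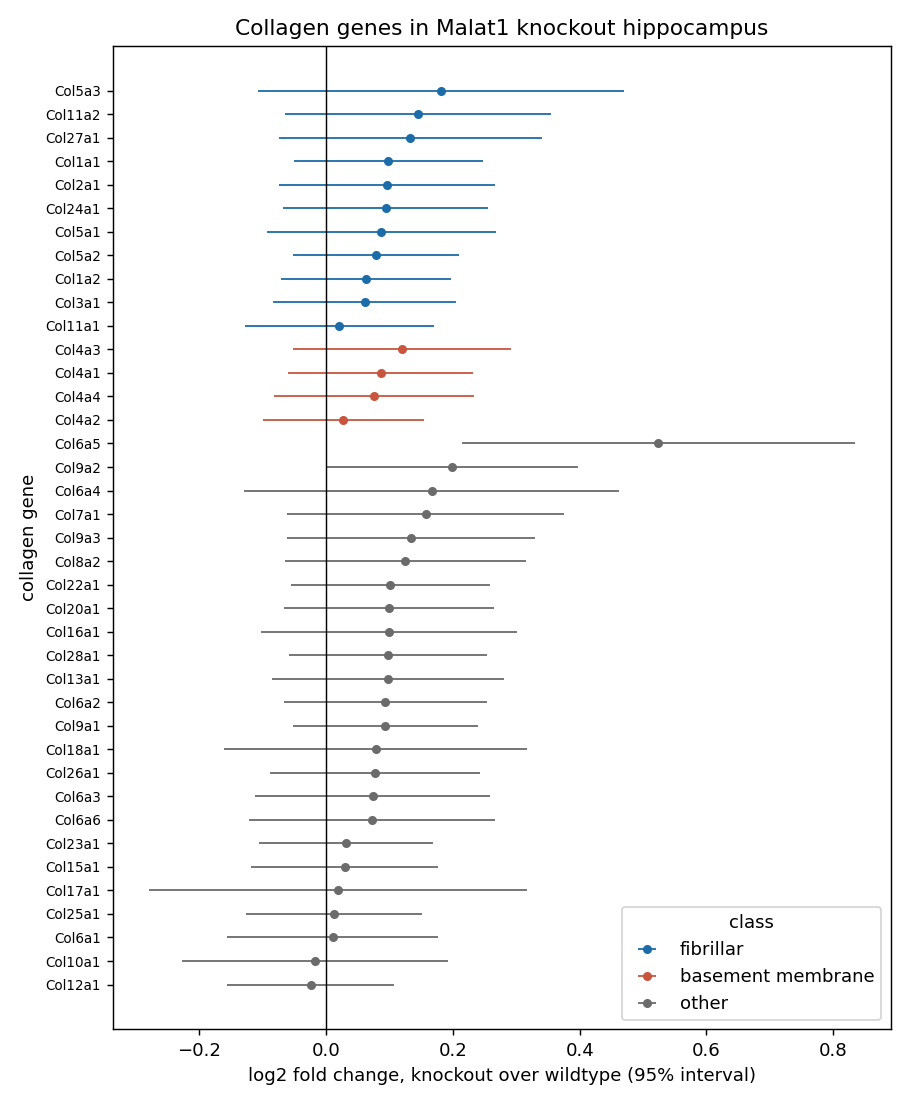
Each point is the log2 fold change of 1 collagen gene, knockout over wildtype (x axis, log2 units), with its 95% interval from limma as the bar; the 39 genes are ordered by value within fibrillar (blue), basement membrane (red) and other (grey) collagens. Of the 39 points 37 lie to the right of 0, the intervals of Col6a5 and Col9a2 alone exclude 0, and no gene passed the adjusted threshold.

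All 11 fibrillar collagens were tested, and their log2 fold changes lay between 0.02 and 0.18 with a median of 0.094. Col1a1, which encodes the alpha 1 chain of type I collagen, stood at 6.91 and 6.92 log2 units in wildtype and at 6.97 and 7.06 in knockout arrays. The difference was 0.10 ± 0.06 (SE), with a 95% interval of -0.05 to 0.25. Both knockout values lay above both wildtype values, but knockout replicate 1 was only 0.05 above the wildtype mean. Its partner in the type I trimer, Col1a2, stood at 6.23 and 6.23 in wildtype and at 6.27 and 6.32 in knockout arrays, a difference of 0.06 ± 0.05 (SE). Col3a1, the single chain of the type III collagen of vessel walls, stood at 6.05 and 6.09 in wildtype and at 6.09 and 6.17 in knockout arrays, a difference of 0.06 ± 0.06 (SE). Thus the 3 chains most typical of fibroblasts and vessel walls differed by 1.04-fold to 1.07-fold and none passed the test.

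The fibrillar values farthest from 0 belonged to minor fibril chains. Col5a3, a chain of the type V collagen that controls fibril diameter, stood at 6.38 and 6.55 in wildtype and at 6.51 and 6.78 in knockout arrays. Its groups overlapped, since knockout replicate 1 lay below wildtype replicate 2, and its difference of 0.18 ± 0.11 (SE) became 0.05 without knockout replicate 2. Col11a2, a chain of the cartilage collagen type XI, stood at 6.61 and 6.66 in wildtype and at 6.68 and 6.88 in knockout arrays, a difference of 0.15 ± 0.08 (SE). Here too the high value came from knockout replicate 2, and without it the difference was 0.05. Col27a1, another fibrillar chain of cartilage, stood at 6.70 and 6.80 in wildtype and at 6.80 and 6.97 in knockout arrays. Its difference of 0.13 ± 0.08 (SE) was 0.05 without knockout replicate 2, and a dimmer Col27a1 row below the filter stood at 0.10. The other fibrillar genes were the cartilage chain Col2a1 (0.10), Col24a1 (0.09), the type V chains Col5a1 (0.09) and Col5a2 (0.08), and Col11a1 (0.02). Without knockout replicate 2, Col2a1 stood at 0.026, Col24a1 at 0.041, Col5a1 at 0.016, Col5a2 at 0.059 and Col11a1 at -0.012, and of the type I and III genes Col1a2 stood at 0.036 and Col3a1 at 0.026.

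**Figure D2:**
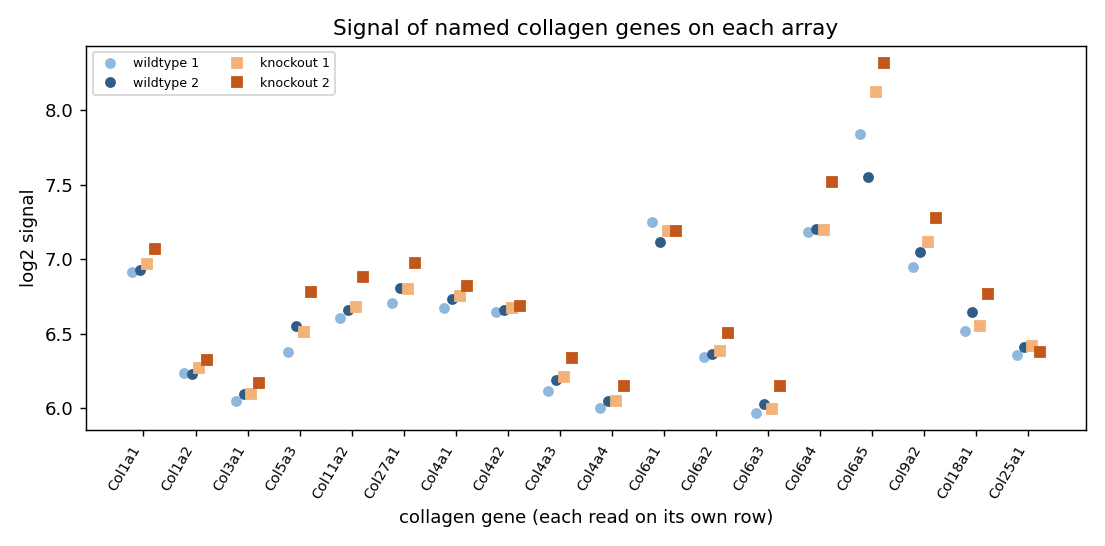
Log2 array signal (y axis) of 18 named collagen genes (x axis), with wildtype arrays as blue circles and knockout arrays as orange squares; each gene is read on its own row, so heights compare arrays within a gene and not genes with each other. Knockout replicate 2, in dark orange, is the highest of the 4 arrays for most of these genes, while Col6a1 and Col25a1 show no such order.

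Col4a1 and Col4a2 encode the chains of the type IV collagen found in nearly every basement membrane, and they are adjacent genes on mouse chromosome 8. Col4a1 stood at 6.67 and 6.73 in wildtype and at 6.75 and 6.82 in knockout arrays, a difference of 0.09 ± 0.06 (SE) with a 95% interval of -0.06 to 0.23. Col4a2 stood at 6.65 and 6.66 in wildtype and at 6.67 and 6.68 in knockout arrays, a difference of 0.03 ± 0.05 (SE) with a 95% interval of -0.10 to 0.15. The 4 values of Col4a2 spanned less than 0.05 log2 units in all. Col4a3 and Col4a4, adjacent on chromosome 1 and known from the filtration barrier of the kidney, had differences of 0.12 and 0.08. Col4a3 stood at 6.12 and 6.19 in wildtype and at 6.21 and 6.33 in knockout arrays. Col4a4 stood at 6.00 and 6.04 in wildtype and at 6.05 and 6.15 in knockout arrays. For all 4 measured type IV genes both knockout arrays lay above both wildtype arrays, where 14.7% of all genes showed this. For Col4a4 the margin was very narrow, with knockout replicate 1 at 6.0458 and wildtype replicate 2 at 6.0450. Their median log2 fold change was 0.081, and none passed the test. Without knockout replicate 2 the median of the 4 was 0.038, with Col4a1 at 0.053, Col4a2 at 0.022, Col4a3 at 0.058 and Col4a4 at 0.023.

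Type VI collagen forms beaded microfibrils near cell surfaces from chains encoded by 6 genes, all of them measured. Col6a1, Col6a2 and Col6a3 encode the 3 classical chains. Col6a1 stood at 7.25 and 7.11 in wildtype and at 7.19 and 7.19 in knockout arrays, a difference of 0.01 ± 0.06 (SE), and its wildtype arrays spanned more than the genotypes differed. Col6a2, its neighbour on chromosome 10, stood at 6.34 and 6.36 in wildtype and at 6.38 and 6.50 in knockout arrays, a difference of 0.09 ± 0.06 (SE) that was 0.034 without knockout replicate 2. Col6a3 stood at 5.97 and 6.02 in wildtype and at 5.99 and 6.15 in knockout arrays, a difference of 0.07 ± 0.07 (SE), and without knockout replicate 2 it was -0.0047.

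Col6a5, which encodes the alpha 5 chain of type VI collagen, had the difference farthest from 0 of all the collagen genes. Its brightest row stood at 7.84 and 7.55 in wildtype and at 8.12 and 8.31 in knockout arrays, so that the groups did not overlap. The log2 fold change was 0.52 ± 0.12 (SE) with a 95% interval of 0.21 to 0.83, a 1.44-fold difference. Its unadjusted limma p was 0.00745 and its adjusted p was 1. The difference stayed between 0.38 and 0.67 when any 1 array was left out. However, 18 rows carry the symbol Col6a5, and the other 17 stood between -0.16 and 0.20 with a median of 0.071. Of these 17, 13 lay above 0 and 4 below, and 10 were above the filter. The next brightest Col6a5 row stood at 7.60 and 7.27 in wildtype and at 7.16 and 7.86 in knockout arrays, so that its knockout arrays were the lowest and the highest of the 4. Averaged over its 18 rows, the Col6a5 difference was 0.077. The value of 0.52 therefore describes 1 transcript cluster among several under this symbol.

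Col6a4, the next gene on chromosome 9, has 7 rows. Its brightest row stood at 7.18 and 7.20 in wildtype and at 7.19 and 7.52 in knockout arrays, and its difference of 0.17 ± 0.11 (SE) came from knockout replicate 2 alone, since without that array it was 0.0030. The other 6 Col6a4 rows stood between -0.14 and 0.29. Col6a6, on the other side of Col6a5 and read on 1 row, stood at 0.07 ± 0.08 (SE), and at -0.0058 without knockout replicate 2. The plot of the rows of Col6a5 and Col6a4 sets each row's difference against its signal.

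**Figure D3:**
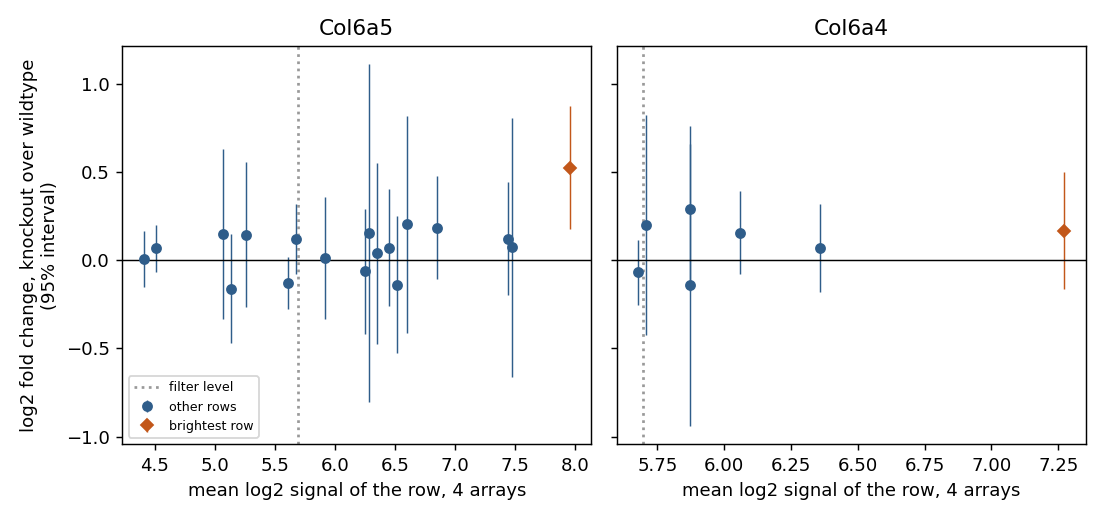
Each point is 1 row (transcript cluster) under the symbol Col6a5 (left, 18 rows) or Col6a4 (right, 7 rows), with its mean log2 signal on the x axis and its log2 fold change, knockout over wildtype, on the y axis; bars are 95% intervals from a limma fit over every singly named row with no filter. The brightest row (diamond) of Col6a5 lies at 0.52, and the other 17 rows lie between -0.16 and 0.20, on both sides of 0.

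Among the collagens that sit on the surface of other fibrils, Col9a2 had the second of the 2 unadjusted calls. It encodes a chain of type IX collagen, which coats the type II fibrils of cartilage. Col9a2 stood at 6.95 and 7.05 in wildtype and at 7.12 and 7.28 in knockout arrays. All knockout values were above all wildtype values, and the difference was 0.20 ± 0.08 (SE), with an unadjusted limma p of 0.0498 and an adjusted p of 1. It was 0.12 without knockout replicate 2. In a fit over every singly named row with no filter, its unadjusted limma p was 0.0655. With no filter and 1 row per gene, where 43 collagen genes were tested, its unadjusted limma p was also over 0.05. With any 1 array left out its difference ran from 0.12 to 0.28. The other type IX chains Col9a3 and Col9a1 stood at 0.13 and 0.09. Col22a1, a collagen of tissue junctions, stood at 0.10, and so did Col20a1 and Col16a1. Without knockout replicate 2 these values were 0.042 for Col9a3, 0.069 for Col9a1, 0.047 for Col22a1, 0.038 for Col20a1 and 0.017 for Col16a1. Col12a1 was the 1 gene of the 39 tested whose knockout arrays both lay below the wildtype arrays, at 6.14 and 6.14 in wildtype and 6.14 and 6.09 in knockout arrays. That difference was -0.02 ± 0.05 (SE), and -0.0021 without knockout replicate 2.

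The transmembrane collagens include the one best known from neurons. Col25a1, whose shed ectodomain was found in amyloid plaques, stood at 6.35 and 6.41 in wildtype and at 6.42 and 6.37 in knockout arrays. Its difference was 0.01 ± 0.05 (SE) with a 95% interval of -0.13 to 0.15, and it was 1 of 3 collagen genes in which knockout replicate 2 was not the highest array, the others being Col6a1 and Col12a1. Col13a1, a component of the neuromuscular junction, stood at 0.10 and Col23a1 at 0.03. Col17a1, the hemidesmosome collagen, stood at 0.02 on its brightest row and at 0.12 on a second row. Without knockout replicate 2, Col25a1 stood at 0.034, Col13a1 at 0.024, Col23a1 at 0.0054 and the brightest row of Col17a1 at -0.15.

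Col18a1, a basement membrane proteoglycan whose C-terminal fragment is endostatin, stood at 6.52 and 6.65 in wildtype and at 6.55 and 6.77 in knockout arrays. The difference of 0.08 ± 0.09 (SE) turned to -0.029 without knockout replicate 2. Its relative Col15a1 stood at 0.03. The anchoring fibril collagen Col7a1 stood at 0.16 ± 0.09 (SE), Col28a1 at 0.10, Col26a1 at 0.08 and Col10a1, the collagen of hypertrophic cartilage, at -0.02. Col8a2, a network-forming collagen of the corneal basement membrane, stood at 0.12 on the row above the filter and at -0.26 on a row below it. Without knockout replicate 2, Col15a1 stood at -0.0066, Col7a1 at 0.066, Col28a1 at 0.065, Col26a1 at 0.012, Col10a1 at -0.12 and the brighter Col8a2 row at 0.072.

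Promoter sequence is shown for the 2 genes with an unadjusted limma p under 0.05, Col6a5 and Col9a2, and for Col1a2 and Col3a1 as fibrillar genes of fibroblasts. The RefSeq table of GRCm38.p6 promoters held 34 of the 43 collagen genes, in 37 windows, and Col1a1 was not among them. Each line gives the 250 bases before the annotated start, on the strand of the gene. Capitals mark the CCAAT box (CCAAT or ATTGG), the GC box (GGGCGG or CCGCCC) and the TATA box (TATAAA or TTTATA), searched on both strands, with no overlap among the matches shown. The windows are chr6:4505368-4505617 on the plus strand, chr1:45311288-45311537 on the plus strand, chr9:105960644-105960893 on the minus strand and chr4:121039316-121039565 on the plus strand.
Col1a2: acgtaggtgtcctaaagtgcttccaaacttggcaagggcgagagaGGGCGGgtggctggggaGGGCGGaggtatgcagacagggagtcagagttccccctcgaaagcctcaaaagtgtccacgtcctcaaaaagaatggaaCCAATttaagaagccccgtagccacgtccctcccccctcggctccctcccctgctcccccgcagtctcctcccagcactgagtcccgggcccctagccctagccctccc
Col3a1: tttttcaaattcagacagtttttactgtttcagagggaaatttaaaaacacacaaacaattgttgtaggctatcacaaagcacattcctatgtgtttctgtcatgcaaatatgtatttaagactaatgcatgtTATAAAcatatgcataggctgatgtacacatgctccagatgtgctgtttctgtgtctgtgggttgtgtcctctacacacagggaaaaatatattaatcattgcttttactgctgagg
Col6a5: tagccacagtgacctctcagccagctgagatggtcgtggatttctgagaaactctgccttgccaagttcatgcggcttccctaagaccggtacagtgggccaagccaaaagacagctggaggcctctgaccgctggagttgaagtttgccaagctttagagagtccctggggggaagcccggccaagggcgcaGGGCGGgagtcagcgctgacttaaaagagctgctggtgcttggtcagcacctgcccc
Col9a2: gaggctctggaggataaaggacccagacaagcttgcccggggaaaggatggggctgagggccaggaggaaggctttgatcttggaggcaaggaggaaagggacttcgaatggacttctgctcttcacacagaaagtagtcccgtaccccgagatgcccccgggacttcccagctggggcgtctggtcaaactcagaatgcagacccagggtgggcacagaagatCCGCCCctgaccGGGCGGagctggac

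Col1a2 held 2 GC boxes and 1 CCAAT box, Col9a2 held 2 GC boxes, Col6a5 held 1 GC box, and Col3a1 held 1 TATA box in a window of 35.2% G and C. Over the 37 collagen windows, 59.5% held a GC box, against 32.7% of all 32851 promoter windows. A CCAAT box was found in 35.1% of the collagen windows and 33.8% of all windows, and a TATA box in 13.5% and 12.4%. These are matches of letters only, and the median content of G and C was 59.2% in the collagen windows and 52.4% in all windows.

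The collagen genes were alike in how the 4 arrays were ordered. Knockout replicate 2 was the highest array for 36 of the 39 genes, whereas it was the highest for 29.8% of all genes. Wildtype replicate 1 was the lowest for 30 of the 39, against 32% of all genes. Measured from each gene's mean over the 4 arrays, the median collagen gene stood at -0.064 in wildtype replicate 1, -0.015 in wildtype replicate 2, -0.012 in knockout replicate 1 and 0.11 in knockout replicate 2. The same medians over all genes lay between -0.011 and 0.012. The summed signal of the 39 genes on the linear scale was 3574 and 3625 in wildtype and 3717 and 4094 in knockout arrays. Over all genes tested it was 2.878e+06 and 2.915e+06 in wildtype and 2.905e+06 and 2.822e+06 in knockout arrays. The collagen sum includes the brightest Col6a5 row, and the sum without that row was not computed. The fibrillar genes alone summed to 932 and 966 in wildtype and 973 and 1064 in knockout arrays.

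**Figure D4:**
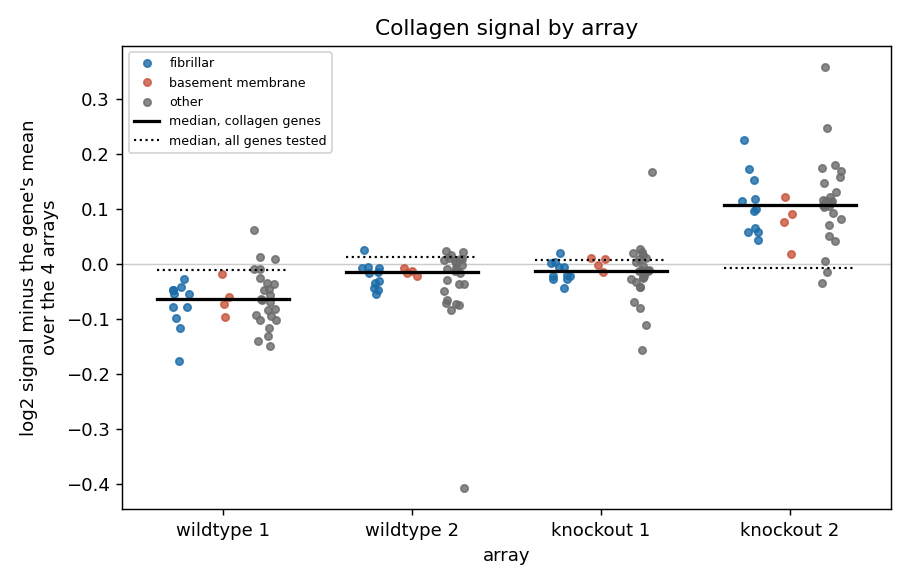
Each point is 1 collagen gene on 1 array (x axis), as its log2 signal minus its own mean over the 4 arrays (y axis, log2 units), in fibrillar (blue), basement membrane (red) and other (grey) collagens; solid lines are medians over the 39 collagen genes and dotted lines medians over all genes tested. The collagen median is 0.11 in knockout replicate 2 and between -0.064 and -0.012 on the other 3 arrays, while the median of all genes stays between -0.011 and 0.012.

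The 2 knockout arrays also differed from each other. The median collagen gene was 0.12 higher in knockout replicate 2 than in knockout replicate 1, and 37 of 39 genes had that direction, beside 44.9% of all genes. It was 0.047 higher in wildtype replicate 2 than in wildtype replicate 1, in 30 of 39 genes and in 62.2% of all genes. Between knockout replicate 1 and wildtype replicate 2 the median collagen difference was 0.0048, with 24 of 39 genes above 0, beside 47% of all genes. Knockout replicate 1 stood a median of 0.044 above wildtype replicate 1, where the median over all genes was 0.019. Knockout replicate 2 stood 0.12 above wildtype replicate 2 and 0.17 above wildtype replicate 1. Over all genes those 2 medians were -0.020 and 0.0039. The median difference of 0.093 between genotypes compares means of 2 arrays, so it is not on the same footing as these differences between single arrays.

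Without knockout replicate 2, the median log2 fold change of the collagen genes was 0.034, against 0.0069 over all genes. Of the 39 genes 31 then lay above 0, where 54.8% of all genes did. The fibrillar, basement membrane and other classes had medians of 0.041, 0.038 and 0.021, down from 0.094, 0.081 and 0.093. With knockout replicate 2 as the only knockout array, the median was 0.15, and 10 of the 39 genes had an unadjusted limma p under 0.05, where 9.97% of all genes did in that fit. Its spread comes from the wildtype pair and the prior, and the lone knockout array is assumed to vary like them. Dim genes of all kinds shared part of this order: among the 5255 genes between the 25th and 50th percentile of signal, 61.9% lay above 0 and knockout replicate 2 was the highest array for 47.5%. In the 10740 brighter genes these shares were 43.1% and 21.2%. The collagen genes were divided between both ranges, 19 of 21 lying above 0 in the dimmer one and 18 of 18 in the brighter one. The part of that array in the collagen shift was not tested beyond these values.

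**Figure D5:**
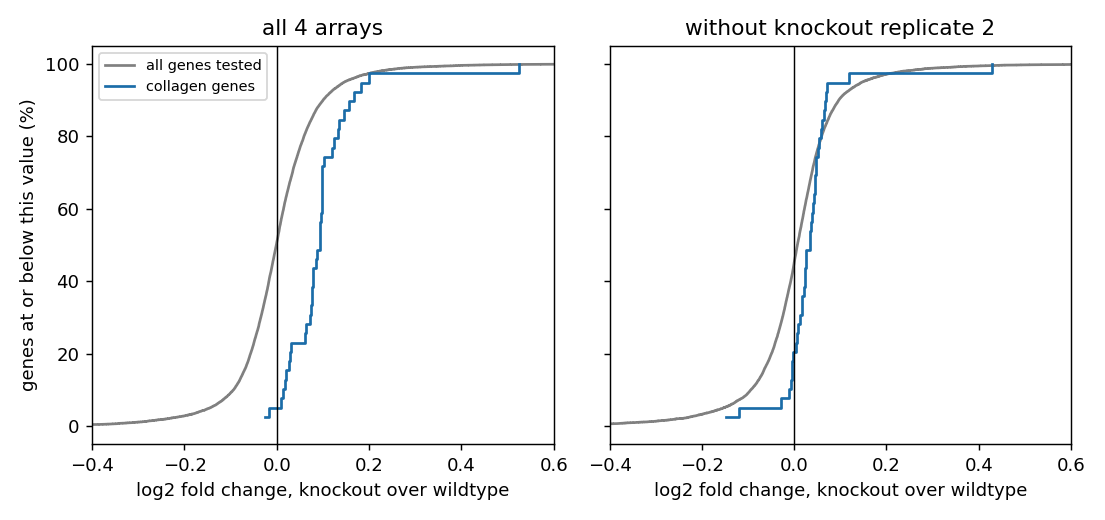
Cumulative share of genes (y axis, percent) at or below each log2 fold change, knockout over wildtype (x axis), for the 39 collagen genes (blue) and all 15995 genes tested (grey), with all 4 arrays (left) and without knockout replicate 2 (right). The collagen curve crosses its middle at 0.093 on the left and at 0.034 on the right, while that of all genes crosses at -0.0011 and 0.0069.

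Genes that make, cut, bind and degrade collagen were read beside the chains, from lists of 75 distinct measured genes, and 0 of them passed the adjusted threshold by limma. An unadjusted limma p under 0.05 was found for 2 of the 75, both in the TGF-beta list, where 3.86% of all genes had one. Of 19 measured genes for folding and modification in the endoplasmic reticulum 8 lay above 0, and their median was -0.011. The values farthest from 0 were those of P3h4 (-0.12), which encodes a partner of the lysyl hydroxylases, the prolyl isomerase Ppib (-0.09) and the cation channel gene Tmem38b (-0.08). For cleavage and crosslinking the median was 0.033 and 7 of 10 were above 0, and the values farthest from 0 were those of the lysyl oxidase family members Loxl1 (0.15) and Loxl3 (0.11) and of the peroxidasin gene Pxdn (0.07), whose enzyme crosslinks type IV collagen. Of 9 measured collagen receptors 3 lay above 0 with a median of -0.034, and those farthest from 0 were the platelet receptor Gp6 (0.19), the receptor tyrosine kinase Ddr2 (0.12) and the inhibitory receptor Lair1 (-0.08).

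Basement membrane components other than collagen had a median of 0.011, with 8 of 14 above 0. The laminin chain Lamc3 stood at -0.15, the laminin chain Lamb2 at 0.15 and Hspg2, which encodes perlecan, at 0.11. Genes of collagen breakdown had a median of 0.015, with 5 of 8 above 0, the gelatinase Mmp9 at 0.09, the membrane protease Mmp16 at -0.08 and the inhibitor Timp3 at -0.08. In the TGF-beta list, the pathway best known for raising collagen transcription, 8 of 15 lay above 0 with a median of 0.0068. Its unadjusted calls were the latent TGF-beta binding protein gene Ltbp3 at 0.20 and the receptor gene Tgfbr1 at -0.19, and the ligand Tgfb1 stood at 0.11. Knockout replicate 2 was the highest array for 29 of the 75 entries of these 6 lists, against 36 of the 39 collagen genes and 29.8% of all genes. Among basement membrane components other than collagen it was the highest for 8 of 14. It was the highest for 5 of 19 in folding, 4 of 10 in cleavage and crosslinking and 4 of 9 receptors. For breakdown this count was 2 of 8, and for the TGF-beta list 6 of 15.

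Cells that make collagen in and near the hippocampus were followed by markers that are not collagens. Markers of meninges and fibroblasts had 13 of 14 members measured, 6 of them above 0, and a median of -0.00010. Their summed linear signal was 1147 and 1227 on the wildtype arrays and 1170 and 1204 on the knockout arrays. Lum, a defining gene of fibroblasts, was below the filter. The members farthest from 0 were Foxd1 (0.07), Fmod (0.06) and Slc22a6 (-0.06). All 10 markers of pericytes and smooth muscle were measured, with 6 above 0 and a median of 0.022. Their summed signal was 1293 and 1308 on the wildtype arrays and 1329 and 1278 on the knockout arrays, each in replicate order. Anpep (0.08), Rgs5 (-0.06) and Myh11 (0.05) stood farthest from 0. Of 8 measured endothelial markers 3 lay above 0, and the median was -0.022. Their summed signal was 859 and 852 on the wildtype arrays and 849 and 829 on the knockout arrays. Slco1a4 (-0.11), Esam (0.07) and Kdr (-0.07) were farthest from 0. The summed signals of these 3 lists overlapped between the genotypes for meninges and for pericytes. For endothelium they were lower in knockout arrays, but knockout replicate 1 at 849 lay close to wildtype replicate 2 at 852. That difference was not tested.

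Markers of choroid plexus, astrocytes, oligodendrocytes and microglia had medians of -0.033, 0.041, -0.017 and -0.054, with 2 of 5, 4 of 6, 3 of 7 and 3 of 8 above 0. Farthest from 0 were Ttr (-0.54), Folr1 (0.19) and Aqp1 (0.07) for choroid plexus, Gfap (0.09), Aldh1l1 (0.09) and Slc1a3 (-0.05) for astrocytes, Mog (-0.12), Sox10 (0.10) and Mbp (-0.07) for oligodendrocytes, and Aif1 (0.13), Csf1r (-0.08) and P2ry12 (-0.08) for microglia. Members of each of these lists thus lay on both sides of 0. In replicate order, the summed signals for choroid plexus were 407 and 472 on the wildtype arrays and 403 and 432 on the knockout arrays. For astrocytes they were 3933 and 4073 on the wildtype arrays and 4119 and 3899 on the knockout arrays. For oligodendrocytes they were 1320 and 1239 on the wildtype arrays and 1259 and 1248 on the knockout arrays. For microglia they were 1024 and 1070 on the wildtype arrays and 1009 and 1041 on the knockout arrays. Markers of hippocampal neurons had a median of -0.039 with 5 of 13 above 0, neocortical markers one of -0.0071 with 2 of 4, and thalamic and habenular markers one of 0.047 with 5 of 6. Farthest from 0 were Prox1 (-0.14), Grik4 (-0.13) and Dsp (-0.08) for hippocampal neurons, Rorb (-0.07), Cux2 (0.02) and Lamp5 (-0.01) for neocortex, and Gbx2 (0.12), Calb2 (0.07) and Tnnt1 (0.05) for thalamus and habenula. Only 1 of 5 blood markers was measured, Alas2 at 0.02. Of the 81 distinct marker genes measured, 0 passed the adjusted threshold by limma. An unadjusted limma p under 0.05 was found for 1, Ttr, where 3.86% of all genes had one. Knockout replicate 2 was the highest array for 28 of the 81, where it was for 29.8% of all genes. Among the thalamic and habenular markers it was the highest for 5 of 6. The part of cell composition in the collagen values was not tested beyond these lists.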

How the data were processed

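The authors deposited 1 table of log2 expression values, as the range and shape of the values show (4.16 to 14.26, array medians 5.59 to 5.63), with 265511 rows, each a transcript cluster. How the authors corrected and normalized these deposited values was not stated in the labels. Per the submitters' processing notes, mm9 was the build. The labels' protocols name a 3' in vitro transcription kit, whose product is antisense RNA, while the array type was built for the opposite labelled strand, so which strand a row measures is not settled. GEO's platform annotation gave 1 symbol to 27090 rows.

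Values were used as deposited. Rows with a mean under the 25th percentile of singly named rows were left out, the brightest row stood for a gene, and 15995 genes were fitted with limma 3.58.1 in R 4.3.3 (genotype only, two-sided, Benjamini-Hochberg adjustment over all genes, threshold 0.05). The 2 arrays of each genotype set the precision, and their number limits it. The 95% intervals had a median half-width of 0.16 log2 units. Fold changes are of array signal, which understates RNA ratios. The labels call arrays of a group biological replicates. Members and gene lists were chosen with earlier results of these data known. Named genes are all collagen genes, with values on every array for the 3 farthest from 0 per class and for 11 fixed genes, and the 3 farthest from 0 in each other list. Alternatives were a replicate block, 2 rescalings, other filters, an intensity trend, other row rules and leaving out each array.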

Additional observations from a re-analysis of the deposited data

How the results depend on the processing

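Under every alternative run, 0 collagen genes passed the adjusted threshold. The count at an unadjusted limma p under 0.05 was 2 of 39 as reported, beside 3.86% of all genes. With no filter the count was 1 of 43 (Col6a5), beside 4.04% of all genes. When the rows of a gene were averaged it was 1 of 39 (Col9a2), beside 3.97% of all genes. With every named row tested on its own it was 1 of 56 (Col6a5), beside 4.02% of all rows tested. It ran from 1 to 10 with 1 array left out. The 10 came without knockout replicate 1, where the knockout arm is 1 array and 9.97% of all genes had such a p, against 2.88% to 4.76% in the other 3 fits, in each of which Col6a5 was the 1 gene. With 1 array left out the median collagen log2 fold change ran from 0.034 to 0.15, lowest without knockout replicate 2, and under the other alternatives from 0.077 to 0.099. The number of genes past the adjusted threshold was 0 to 1 and the Malat1 change -2.70 to -2.52 with 1 array left out, the call being lost without either knockout array (limma adjusted p = 0.0992 and 0.0784). With the replicate number as a block, 3 collagen genes had an unadjusted limma p under 0.05, Col5a3 being added to Col6a5 and Col9a2, while the share of all genes was 5.23% against 3.86% without the block. The median stayed at 0.093, and Malat1 was the 1 gene past the adjusted threshold in both. The deviations of same-numbered arrays correlated at 0.060 across genes, and no label says that the number marks the littermate pair. Both rescalings left 35 to 36 of 39 collagen genes above 0. Leaving out 1 array changed the sign of 9 of the 39 genes, and other settings changed that of Col25a1, Col6a1 and Col8a2, the last at -0.067 with the mean over its rows.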
